A study of Homo sapiens with 15 samples.

Results

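Retinoic acid is made from vitamin A inside cells and acts through nuclear receptors, and 10 genes of this pathway were followed through the differentiation of H1 human embryonic stem cells towards the heart. The genes were chosen by name, as the rows whose Ensembl identifier carries the GENCODE symbol ALDH1A2, ALDH1A3, CYP26A1, CYP26B1, RARA, RARB, RARG, CRABP1, CRABP2 or DHRS3, and all 10 were found among the 48777 genes of the deposited tables. The largest changes fell between day 4 and day 9: transcripts of the receptor RARB rose from 1.73 ± 0.516 to 54.6 ± 14.3 TPM (reads scaled for gene length and library size, mean ± SD, n = 3), and those of the degrading enzyme CYP26A1 fell from 258 ± 184 to 17.4 ± 7.80 TPM. CYP26A1 fell again by day 11, to 1.82 ± 0.680 TPM, and the receptor RARG, which made up 86.1% ± 1.41 of the summed receptor TPM on day 4, made up 19.8% ± 6.25 on day 11.

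H1 is an established human embryonic stem cell line. Bulk RNA-seq was made in 3 libraries on each of days 0, 4, 9, 11 and 20, 15 libraries in all, which the labels call biological replicates without naming separate cultures beyond plate numbers, so p-values measure the spread between these wells of 1 line. Cells of days 4 to 20 grew on a coat of laminins LN-521 and LN-221, whereas for the 3 day 0 libraries the sample table names only LN-521, so for day 4 against day 0 the coat and the day cannot be told apart. The labels describe Nutristem medium for day 0, then RPMI with B27 lacking insulin, with the Wnt activator CHIR99021 and later the Wnt inhibitor IWP2, and RPMI with CTS B-27 from day 11; the labels' texts date these additions differently, with CHIR99021 put at confluence on day 4 in one of them.

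Libraries held 11990302 to 33469703 counts, with a median of 22867831. The RNA integrity number (RIN) was 8.8 to 10 in 14 libraries and 6.1 in the day 20 library of plate 2_3. That library also had a count for 48230 genes, against 30886 to 39551 in the others, and 175 autosomal coding genes with at most 2 counts over the 12 libraries of the other days carried there a median of 11.0 reads per kilobase, against 0 and 0.679 in the other day 20 libraries. Calls, shares and list counts of day 20 are therefore also given without it. A gene of 57 bases took 20.0% of all TPM in day 0 replicate 3 and 17.0% in the day 9 library of plate 2, which lowers every other TPM value there. The sums of 2 marker lists followed the labels. The 8 pluripotent cell markers summed to 6705 to 9903 TPM on days 0 and 4 and to 109 to 141 TPM on day 20, though all 8 reached 1 TPM on every day. Cardiomyocyte markers summed to 19.8 to 29.5 TPM on days 0 and 4 and to 6063 to 25147 TPM on day 20. On day 20 the endoderm and hepatic markers summed to 715 to 20578 TPM and the fibroblast and mesenchyme markers to 1212 to 24452 TPM.

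In the pathway, retinol is oxidized to retinal, and retinal dehydrogenases of the ALDH1A family turn retinal into retinoic acid. DHRS3 reduces retinal back to retinol, the CRABP proteins bind retinoic acid in the cytoplasm, and the CYP26 enzymes hydroxylate it for removal. The receptors RARA, RARB and RARG pair with retinoid X receptors on DNA, and RARB, CYP26A1, DHRS3 and many HOX genes are known targets. In the embryo retinoic acid patterns the posterior heart field and favours atrial over ventricular fate. In bulk RNA, fewer cells of a type and less RNA per cell cannot be told apart.

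The promoters are shown because CYP26A1 and RARB, the members with the widest range of level over the days, both carry the letters of a retinoic acid response element. RefSeq windows (GRCh38.p14) of 300 bases were found for all 10 members, 19 windows in all, and were searched on both strands for the half-site NGNTCA in direct repeat, with a spacer of 5 bases (DR5) or of 2 bases (DR2), in which N is any base. DR5 was found in 2 of the 19 windows and in 254 of 35116 windows of all genes (0.723%), and DR2 in 0 of the 19 and in 237 of all (0.675%). The 150 bases before each annotated start follow, on the plus strand, with the match in capitals; CYP26A1 is at chr10:93073743-93073892 and RARB at chr3:25428113-25428262.
CYP26A1: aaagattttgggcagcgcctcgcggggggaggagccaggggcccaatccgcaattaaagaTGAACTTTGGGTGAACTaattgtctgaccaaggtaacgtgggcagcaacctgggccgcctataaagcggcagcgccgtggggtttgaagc
RARB: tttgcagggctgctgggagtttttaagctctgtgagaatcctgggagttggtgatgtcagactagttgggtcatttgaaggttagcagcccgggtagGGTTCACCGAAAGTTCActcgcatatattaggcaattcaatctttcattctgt
The CYP26A1 match lies 90 to 74 bases before the start and reads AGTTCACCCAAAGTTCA on the minus strand, and the RARB match lies 53 to 37 bases before the start and reads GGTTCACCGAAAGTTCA on the plus strand. Both genes have windows at more than 1 annotated start, and the match lies before only 1 of these starts in each gene. The window at the outermost CYP26A1 start (chr10:93073475) held no match, and the matched site (chr10:93073803-93073819) lies inside the annotated gene. A match is a description of letters, and binding was not measured.

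**Figure D1:**
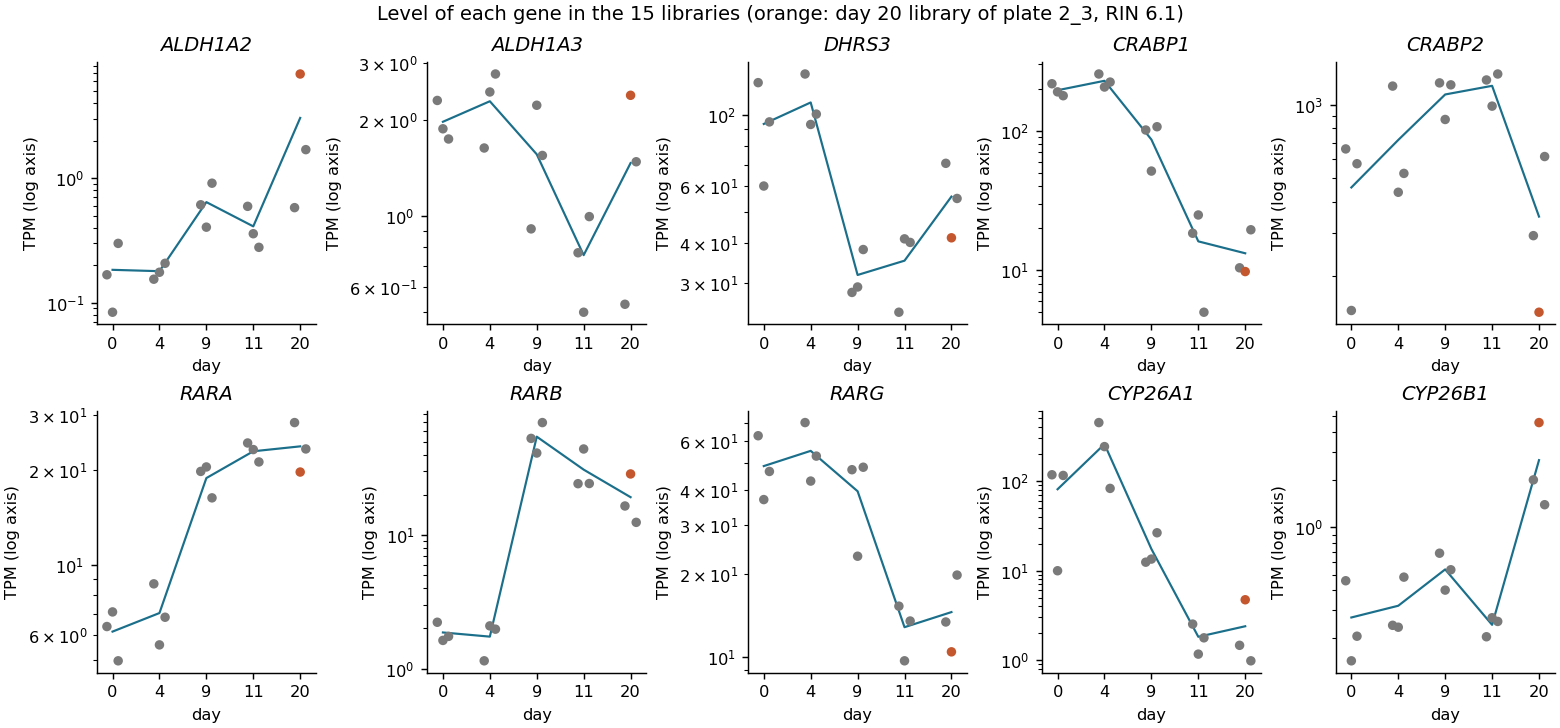
TPM (log axis) of the 10 genes by day, with a point for each of the 3 libraries per day, a line through the means, and the day 20 library of plate 2_3 in orange. RARB rises from 1.14 to 2.09 TPM on day 4 to 41.2 to 69.6 TPM on day 9, and CYP26A1 falls from 82.6 to 449 TPM on day 4 to 1.17 to 2.52 TPM on day 11.

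Across all 5 days, 9 of the 10 members differed between days by edgeR at an adjusted p under 0.05, where 50.4% of the 24767 genes tested did. The exception was CRABP2 (edgeR adjusted p = 0.0839), and the count of 9 includes ALDH1A3, whose call was lost under 11 of 22 other settings. From day 0 to day 4 none of the 9 members tested was called, and 0 of 20964 genes was called (0%); the smallest unadjusted p among the members was 0.150, for CYP26A1. The 3 libraries of each day overlapped in all 10 members, where 9.64% of genes did not overlap. Over all genes, 741 had an unadjusted p under 0.05 (3.53%), and DESeq2 called 0. Without the filter on low counts edgeR called 64 genes. CYP26B1 had too few counts to be tested there.

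From day 4 to day 9, 6 of the 10 members were called, 3 higher and 3 lower, against 49.0% of 21252 genes (24.3% higher, 24.7% lower). In scaled counts per library the groups did not overlap in 6 members, against 58.5% of genes. From day 9 to day 11, 1 of 10 was called, lower, against 2.39% of 20679 genes (1.00% lower), and 5 of 10 did not overlap, against 24.0%. From day 11 to day 20, 1 of 10 was called, higher, against 1.55% of 21398 genes (1.12% higher), and 3 of 10 did not overlap, against 24.2%. The member called there, CYP26B1, passed the filter on low counts only through day 20, as it did from day 4 to day 20. ALDH1A2, counted as higher from day 4 to day 9 and from day 4 to day 20, passed it only through the later day. From day 4 to day 20, 8 of 10 were called, 4 higher and 4 lower, against 30.8% of 22024 genes (17.6% higher, 13.3% lower), and 9 of 10 did not overlap, against 48.0%. The median log2 fold change of all genes was 0.11 for day 20 against day 4 and between -0.01 and 0.07 in the other comparisons. Without plate 2_3, edgeR called 1 member from day 11 to day 20, higher, against 2.35% of genes, and 8 from day 4 to day 20, 4 higher and 4 lower, against 47.7%. Log2 fold changes from day 4 to day 20 with and without that library were -7.10 and -7.77 for CYP26A1, 1.58 and 1.81 for RARA, and 2.74 and 2.34 for CYP26B1. They were 3.20 and 3.01 for RARB, -2.09 and -1.81 for RARG, and -4.27 and -4.01 for CRABP1. These comparisons share days, so they are not independent of each other.

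**Figure D2:**
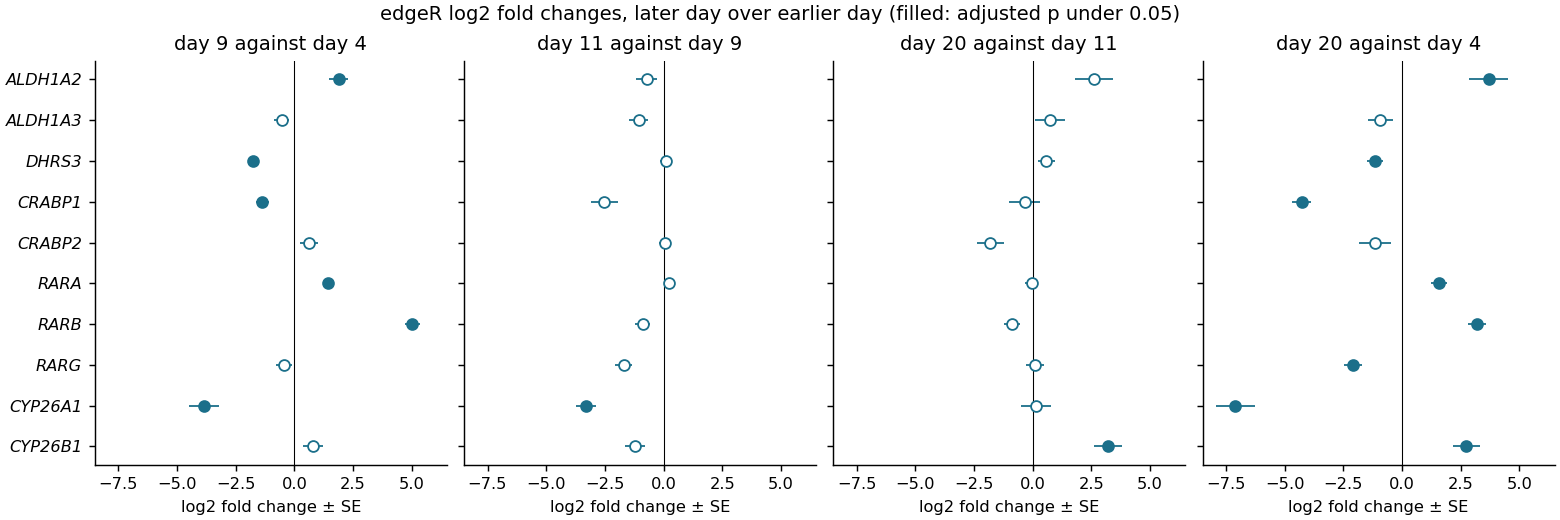
edgeR log2 fold changes ± SE of the 10 genes in 4 comparisons, later day over earlier day, 3 libraries a day, with filled points for an adjusted p under 0.05. Day 9 against day 4 holds 6 filled points, from -3.86 for CYP26A1 to 5.03 for RARB, and each of the next steps holds 1.

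Of the synthesis enzymes, ALDH1A2 (chr15:57953424-58497866, minus strand) is the main retinal dehydrogenase of the early embryo and of the epicardium. It was at 0.154, 0.175 and 0.207 TPM on day 4, at 0.611, 0.403 and 0.910 TPM on day 9, at 0.593, 0.357 and 0.278 TPM on day 11, and at 0.579, 6.86 and 1.69 TPM on day 20. All day 9 libraries lay above all day 4 libraries, and the day 20 libraries spread over more than the range of all earlier days. ALDH1A2 rose from day 4 to day 9 (log2 fold change 1.89, SE 0.40, edgeR adjusted p = 0.00490) and was higher on day 20 than on day 4 (3.69, SE 0.83, edgeR adjusted p = 0.0148). The rise to day 9 rests on 9 to 11 counts per library on day 4 and 19 to 58 on day 9, and with all 15 libraries in one fit its edgeR adjusted p was 0.0679. With so few counts on day 4, ALDH1A2 passed the filter on low counts only through the later day in both comparisons. It could therefore hardly be called lower, and these calls are no test of direction. The highest day 20 value belongs to plate 2_3, where the read rate on silent genes would by itself account for 40.9% of the ALDH1A2 counts. Without that library the log2 fold change of day 20 against day 4 was 2.58 (edgeR adjusted p = 0.00716). The day 20 call was lost without any 1 of the day 4 libraries (edgeR adjusted p = 0.0610 to 0.0739) and with limma (adjusted p = 0.110 and 0.0535 with the larger and the smaller pseudocount). ALDH1A2 shares exon sequence with AQP9 and an antisense gene on the opposite strand, and whether reads were counted by strand is not given in the sources used here.

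ALDH1A3 (chr15:100877714-100916626, plus strand), a second retinal dehydrogenase, was low throughout. It held 1.97 ± 0.291 TPM on day 0, 2.28 ± 0.590 on day 4, 1.56 ± 0.654 on day 9, 0.755 ± 0.248 on day 11 and 1.46 ± 0.928 on day 20. Neighbouring days overlapped, and no step was called, the smallest edgeR adjusted p being 0.195 for day 9 against day 4, while the test over all days gave an edgeR adjusted p of 0.0350. That call was lost in 6 of 15 edgeR fits with a library left out (adjusted p up to 0.0944), with library size alone (0.112), with upper-quartile normalization (0.0687), with the lane or the plate as a block (0.0818 and 0.133) and with limma (0.121). The day 20 value of plate 2_3, 2.39 TPM, came to 54 counts, fewer than the silent-gene rate gives for its length (118% of them).

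Another enzyme of the family, ALDH1A1, stood on the list of other synthesis and clearance enzymes. It was at 0.497, 3.47 and 0.142 TPM on day 9 and at 45.5, 34.7 and 70.5 TPM on day 11, so the days did not overlap. ALDH1A1 rose between these days by a log2 fold change of 5.23 (SE 0.90, edgeR adjusted p = 0.0352), and on day 20 it ranged from 21.0 TPM in plate 2_3 to 288 TPM in plate 2. For day 11 against day 9, ALDH1A1 passed the filter on low counts only through day 11. It could hardly be called lower there, so the call is no test of direction. RDH10, which makes the retinal that these enzymes use, rose from 7.72 ± 1.16 TPM on day 4 to 46.7 ± 27.0 TPM on day 9 (log2 fold change 2.59, SE 0.37, edgeR adjusted p = 0.000915). On its list of retinol and retinal oxidoreductases 3 of 11 tested genes were higher and 3 lower on day 9 than on day 4, where 24.3% and 24.7% of all genes were. ADH5, the most abundant gene of that list, held means of 183 to 234 TPM over the 5 days and was not called in any comparison.

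DHRS3 (chr1:12567910-12618210, minus strand), which returns retinal to retinol, moved the other way. It was at 134, 93.3 and 100 TPM on day 4 and at 28.1, 29.2 and 38.1 TPM on day 9, with every day 9 library below every day 4 library. The fall (log2 fold change -1.76, SE 0.19, edgeR adjusted p = 0.000181) was also found within each of the 3 sequencing lanes, by -1.64 to -1.83. Levels were 35.2 ± 9.42 TPM on day 11 and 55.7 ± 14.6 TPM on day 20, where the highest day 11 library (41.2 TPM) and the lowest day 20 library (plate 2_3, 41.5 TPM) met. In scaled counts plate 2_3, at 16.6 CPM, lay below every day 11 library (19.8, 32.3 and 33.3 CPM). The other day 20 libraries, at 55.9 and 42.3 CPM, lay above them. DHRS3 remained lower on day 20 than on day 4 (log2 fold change -1.14, SE 0.34, edgeR adjusted p = 0.0406), a call that was lost in 4 of the 6 fits with a library left out and held without plate 2_3 (-0.87, edgeR adjusted p = 0.0188).

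CRABP1 (chr15:78340353-78348225, plus strand) and CRABP2 (chr1:156699606-156705816, minus strand) both bind retinoic acid, and CRABP2 is known to carry it to the receptors. CRABP1 was at 254, 205 and 223 TPM on day 4, at 101, 51.3 and 107 TPM on day 9, at 18.4, 24.8 and 4.99 TPM on day 11, and at 10.4, 9.76 and 19.4 TPM on day 20. Day 9 lay wholly below day 4 and day 11 wholly below day 9, and days 11 and 20 overlapped. The fall from day 4 to day 9 passed the test (log2 fold change -1.36, SE 0.30, edgeR adjusted p = 0.00681), and that from day 4 to day 20 was -4.27 (SE 0.41, edgeR adjusted p = 0.000835). The step from day 9 to day 11 was as large as -2.52 (SE 0.58) but missed the threshold (edgeR adjusted p = 0.0763).

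CRABP2 had the highest mean TPM of the members on every day. It stood at 660, 145 and 574 TPM on day 0, at 1189, 439 and 524 TPM on day 4, at 1225, 869 and 1202 TPM on day 9, at 1259, 985 and 1331 TPM on day 11, and at 293, 143 and 614 TPM on day 20. All day 20 libraries lay below all day 11 libraries, with a log2 fold change of -1.81 (SE 0.58, edgeR adjusted p = 0.168) that did not pass, and -1.38 without plate 2_3 (edgeR adjusted p = 0.102). CRABP1 made up 26.4% ± 7.68 of the summed CRABP1 and CRABP2 TPM on day 4, 7.11% ± 1.36 on day 9 and 1.42% ± 1.04 on day 11.

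The receptors moved in different directions. RARB (chr3:24687887-25597932, plus strand) was at 1.14, 2.09 and 1.97 TPM on day 4 and at 53.0, 41.2 and 69.6 TPM on day 9, followed by 24.3, 44.1 and 24.3 TPM on day 11 and 16.5, 28.7 and 12.5 TPM on day 20. Every library from day 9 on lay above every library of days 0 and 4. RARB rose between days 4 and 9 by a log2 fold change of 5.03 (SE 0.32, edgeR adjusted p = 1.76e-05), by 4.27 to 5.81 within lanes, and it was still higher on day 20 than on day 4 (3.20, SE 0.37, edgeR adjusted p = 0.00133). Its steps after day 9, -0.89 and -0.87, were not called.

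RARA (chr17:40309180-40357643, plus strand), a broadly expressed receptor, was at 8.71, 5.57 and 6.82 TPM on day 4 and at 19.8, 20.5 and 16.3 TPM on day 9. The days did not overlap, and RARA rose (log2 fold change 1.44, SE 0.19, edgeR adjusted p = 0.000451). Levels on day 11 (23.0 ± 1.60 TPM) and day 20 (23.8 ± 4.32 TPM) overlapped, and which of them was higher turned with the scaling. RARA shares exon sequence with antisense genes on the other strand.

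RARG (chr12:53210567-53232980, minus strand), a receptor known from early embryonic cells, was at 70.1, 43.1 and 53.1 TPM on day 4, at 47.4, 23.1 and 48.4 TPM on day 9, at 15.3, 9.69 and 13.5 TPM on day 11 and at 13.4, 10.4 and 19.8 TPM on day 20. Days 4 and 9 overlapped, and all libraries of days 11 and 20 lay below all of day 9. RARG was lower on day 20 than on day 4 (log2 fold change -2.09, SE 0.39, edgeR adjusted p = 0.00749), and it held this call in all 16 alternative fits. The step from day 9 to day 11, -1.70 (SE 0.35), lay just outside the threshold (edgeR adjusted p = 0.0543).

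As shares of the summed TPM of the 3 receptors, RARG, RARB and RARA stood at 86.1%, 2.91% and 11.0% on day 4. On day 9 they stood at 34.2% ± 6.28, 48.2% ± 3.89 and 17.6% ± 6.08, and on day 20 at 25.4% ± 9.15, 33.2% ± 13.8 and 41.4% ± 7.59. RARB took 48.7% in plate 2_3, against 28.4% and 22.4% in the other day 20 libraries, where RARG took 23.0% and 35.6% and RARA 48.7% and 42.0%. The summed level was 64.2 ± 14.7 TPM on day 4, 113 ± 25.5 on day 9 and 57.5 ± 1.75 on day 20. The day 20 sums, 55.6 to 58.9 TPM, lay within the range of the day 4 sums, 50.8 to 79.9 TPM. Plates 2 and 6_1 held 58.2 and 55.6 TPM of these. In scaled counts plate 2_3 was lower in RARA, at 12.31 CPM against 34.90 and 27.99 CPM in plates 2 and 6_1. It was also lower in RARG, at 7.06 CPM against 17.87 and 25.66 CPM, while its RARB lay between theirs. The closeness of plate 2_3 to the other day 20 sums therefore holds for TPM only.

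**Figure D3:**
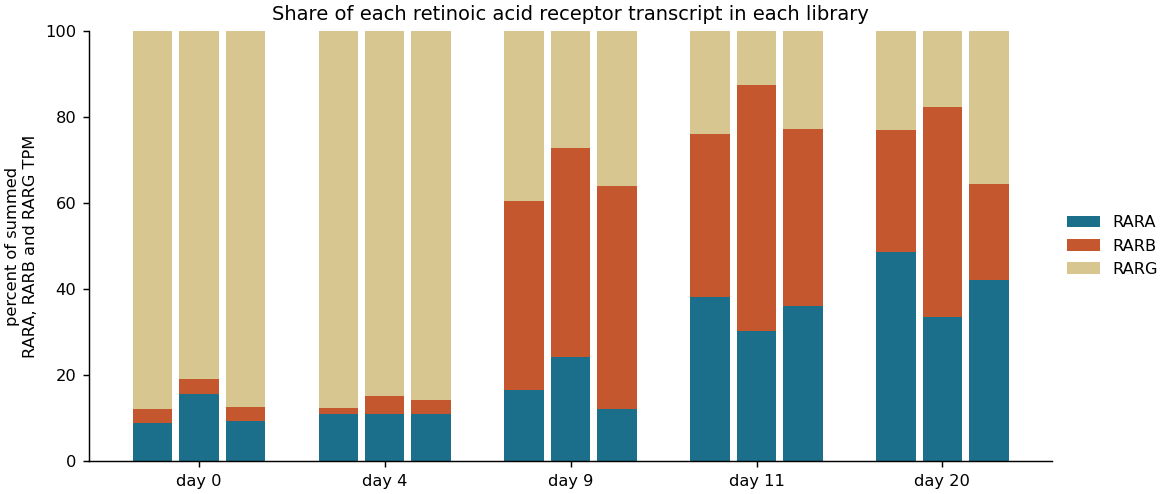
Percent of the summed RARA, RARB and RARG TPM taken by each receptor, with 1 bar for each of the 15 libraries, grouped by day. RARG takes 80.9% to 88.0% in the libraries of days 0 and 4 and 12.6% to 39.4% in all later libraries.

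On the clearance side, CYP26A1 (chr10:93073475-93077885, plus strand) was at 117, 9.95 and 115 TPM on day 0 and at 449, 242 and 82.6 TPM on day 4. It then stood at 12.4, 13.4 and 26.4 TPM on day 9, at 2.52, 1.17 and 1.77 TPM on day 11, and at 1.46, 4.72 and 0.982 TPM on day 20. Day 0 held one low library and overlapped with day 4, whereas days 4, 9 and 11 were separate from each other. CYP26A1 fell from day 4 to day 9 (log2 fold change -3.86, SE 0.64, edgeR adjusted p = 0.00189) and from day 9 to day 11 (-3.31, SE 0.43, edgeR adjusted p = 0.0173), the single call among the members at that step. The second call was lost without the day 9 library of plate 2 (edgeR adjusted p = 0.102), without the day 9 library that has no plate number (0.0577), without the day 11 library of plate 6 (0.0526) and with all 15 libraries in one fit (0.0632).

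CYP26B1 (chr2:72129238-72147862, minus strand), a second retinoic acid hydroxylase, was near the limit of detection until day 11, with 4 to 20 counts per library. It was at 0.204, 0.269 and 0.255 TPM on day 11 and at 1.99, 4.58 and 1.39 TPM on day 20. The days did not overlap, and CYP26B1 rose (log2 fold change 3.20, SE 0.60, edgeR adjusted p = 0.0469), the only call among members at that step. With 6, 7 and 8 counts on day 11 and 62, 90 and 31 on day 20, it passed the filter on low counts only through day 20. It could therefore hardly be called lower, and the call is no test of direction. Without plate 2_3, where the silent-gene rate would account for 61.3% of the CYP26B1 counts, the log2 fold change was 2.79 (edgeR adjusted p = 0.0337). The call was lost without the day 20 library of plate 2 (edgeR adjusted p = 0.0586) and without any 1 of the day 11 libraries (0.183 to 0.311), and 8 of 11 other settings did not make it. CYP26A1 made up 99.8% ± 0.294 of the summed CYP26A1 and CYP26B1 TPM on day 4 and 44.9% ± 5.14 on day 20, or 42.4% and 41.4% in the day 20 libraries other than plate 2_3.

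Set against each other per length, the summed ALDH1A2 and ALDH1A3 TPM came to 0.0169 ± 0.0168 of the summed CYP26A1 and CYP26B1 TPM on day 4. The ratio was 0.132 ± 0.0512 on day 9, 0.575 ± 0.0675 on day 11 and 0.885 ± 0.517 on day 20, where it was 0.321 and 1.34 in the libraries other than plate 2_3. The CYP26 sum went from 258 ± 183 TPM on day 4 to 2.06 ± 0.647 TPM on day 11, and the sum of these 2 ALDH1A members from 2.46 ± 0.615 to 1.16 ± 0.269 TPM. ALDH1A1 is not a member and is left out of these sums. With it, the ALDH1A sum was 4.89 ± 0.990 TPM on day 4, 3.57 ± 2.20 on day 9 and 51.4 ± 18.5 on day 11, and the ratio was 0.0315 ± 0.0280, 0.230 ± 0.184 and 25.8 ± 9.13. On day 20 the ratio with ALDH1A1 was 83.6 in plate 2, 37.4 in plate 6_1 and 3.26 in plate 2_3. TPM of transcripts is not enzyme activity.

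**Figure D4:**
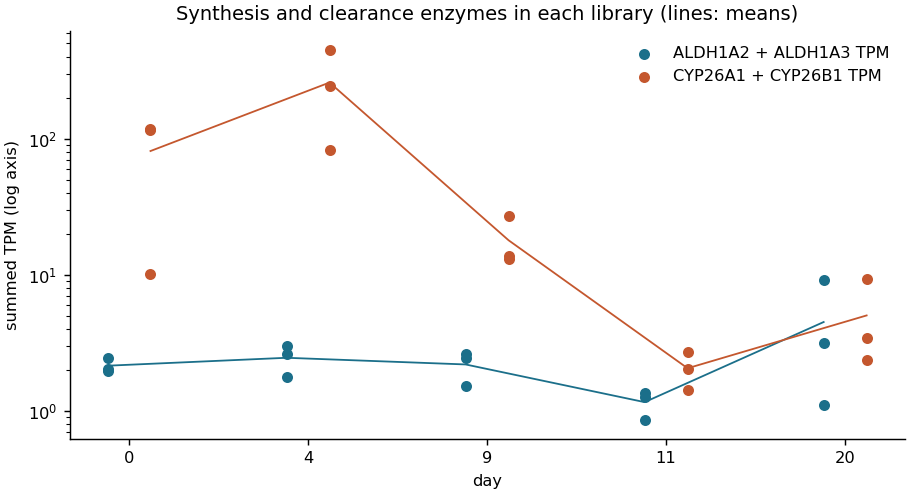
Summed TPM (log axis) of ALDH1A2 and ALDH1A3 and of CYP26A1 and CYP26B1 by day, with 1 point per library and lines through the means. The CYP26 sum drops from 83.1 to 449 TPM on day 4 to 1.44 to 2.73 TPM on day 11, and the sum of ALDH1A2 and ALDH1A3, which leaves out ALDH1A1, stays between 0.858 and 2.99 TPM up to day 11.

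Markers of other cell states moved over the same days, and their part in these changes was not tested. The 8 pluripotent cell markers summed to 7748 to 8889 TPM on day 4, to 2002 to 2440 on day 9, to 1008 to 1475 on day 11 and to 109 to 141 on day 20, with all 8 above 1 TPM in some library of each day. LIN28A made up most of the sums of days 9 and 11, at 1464 to 1951 and 838 to 1219 TPM. From day 4 to day 9, POU5F1 went from 1138 to 1486 TPM to 61.4 to 115 TPM, and SOX2 from 841 to 1007 TPM to 3.93 to 21.5 TPM. The 8 endoderm and hepatic markers summed to 5.14 to 12.1 TPM on day 4 and to 453 to 1326 TPM on day 9, and on day 20 to 715 TPM in plate 2_3 against 17283 and 20578 TPM in the others. The 8 epicardial and mesothelial markers went from 233 to 296 TPM on day 4 to 2176 to 2421 TPM on day 9. On day 20 they stood at 424 TPM in plate 2_3, against 1387 and 2071 TPM in the others. KRT19, which many epithelia also express, made up 95.2% to 96.9% of that sum on day 4 and 93.0% to 95.1% on day 9. On day 20 it made up 90.0% in plate 2, 62.4% in plate 2_3 and 74.9% in plate 6_1. The other 7 epicardial and mesothelial markers summed to 10.8 ± 1.42 TPM on day 4, to 147 ± 33.8 on day 9, and on day 20 to 139 in plate 2, 160 in plate 2_3 and 520 in plate 6_1. The 7 fibroblast and mesenchyme markers summed to 365 to 531 TPM on day 4 and to 778 to 2365 on day 9. They summed to 1247 to 7368 TPM on day 11 and to 1212 to 24452 on day 20, where COL3A1 alone held 17006 TPM in plate 6_1.

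Of 88 other genes on lists of the pathway, its known responders and chamber genes, 46 of the 66 tested were called from day 4 to day 9, 35 higher and 11 lower, where 24.3% of all genes were higher and 24.7% lower. Of the 25 genes known to respond to retinoic acid, 19 were tested and 18 called, 15 higher and 3 lower, against 49.0% of all genes called, with a median log2 fold change of 7.73 against 0.01 over all genes. The median was 7.44 with the 3 genes that had no count on day 4 set at the bound given by 3 counts over the group. For day 4 against day 0 only 7 of the 25 responders, and 46 of the 88 listed genes, had enough counts to be tested. Genes with too few counts on day 4 passed the filter only through day 9. They could hardly be called lower, so for them the counts and the median are no test of direction. HOXB1, an anterior HOX gene, had no count in any day 4 library and stood at 99.0, 188 and 78.8 TPM on day 9, at least 2165-fold higher against a floor of 3 counts over the day 4 libraries, then at 22.2, 4.52 and 69.8 TPM on day 11. MEIS1 and MEIS2, partners of HOX proteins, rose by log2 fold changes of 9.32 (SE 0.27) and 8.21 (SE 0.17). HOXA2, HOXB2 to HOXB5, TSHZ1, NR2F1, NR2F2, TBX5 and TGM2 were among the others that rose, and RARRES2, PLAAT4 and RAI14 fell.

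**Figure D5:**
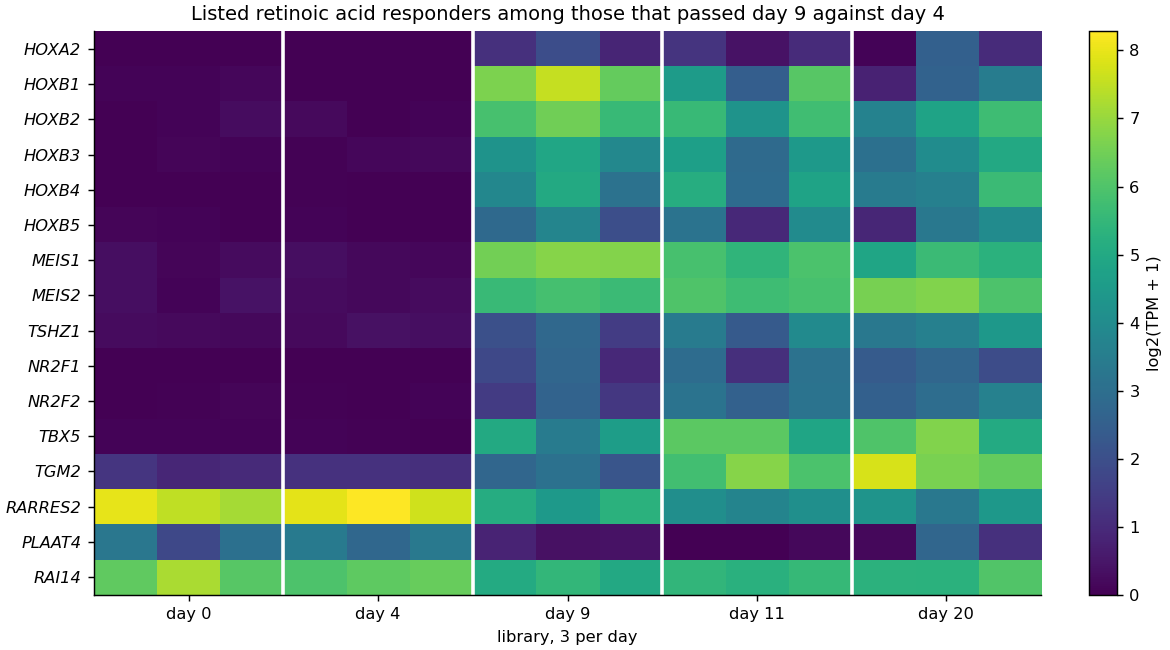
Level, as log2(TPM + 1), of listed responders among those that passed day 9 against day 4, with 1 column per library and 3 libraries per day. The genes that rose are dark on days 0 and 4 and lighter from day 9 on, and RARRES2, PLAAT4 and RAI14 run the other way.

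Of 11 retinol handling genes tested, 7 were higher and 2 lower on day 9 than on day 4, against 24.3% and 24.7% of all genes. LRP2, an uptake receptor, rose by a log2 fold change of 3.60 (SE 0.28, edgeR adjusted p = 4.27e-05). STRA6, the retinol transporter, rose by 0.75 (SE 0.14, edgeR adjusted p = 0.00264), and LRAT, which stores retinol as esters, fell by 3.43 on the log2 scale (SE 0.25, edgeR adjusted p = 2.68e-05). TTR, a serum carrier made by liver-type cells and also one of the endoderm markers above, went from 0.335 ± 0.237 to 110 ± 75.7 TPM.

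Among receptor partners and cofactors, 5 of 12 tested were called at that step, 4 higher and 1 lower, against 49.0% of all genes. RXRA, a partner receptor, rose by a log2 fold change of 1.14 (SE 0.12, edgeR adjusted p = 0.000138), and NRIP1, a corepressor, by 2.31 (SE 0.22, edgeR adjusted p = 0.000106). FABP5, which carries retinoic acid to another receptor, fell by 0.89 on the log2 scale (SE 0.18, edgeR adjusted p = 0.00358). RXRG was at 0.375, 0.611 and 0.452 TPM on day 9, at 4.62, 10.8 and 2.31 TPM on day 11 and at 140, 38.6 and 44.6 TPM on day 20, and rose from day 9 to day 11 by 3.54 (SE 0.61, edgeR adjusted p = 0.0330). RXRG passed the filter on low counts there only through day 11. It could hardly be called lower, so the call is no test of direction.

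From day 9 to day 11, 8 of 68 listed genes tested were called, 6 higher and 2 lower, against 2.39% of all genes, among them CYP1B1, which also oxidizes retinoids and which fell by 4.20 on the log2 scale (SE 0.73, edgeR adjusted p = 0.0375). ALDH1A1 and RXRG, among the 6 higher, passed the filter on low counts only through day 11. From day 11 to day 20, 5 of 78 were called, against 1.55% of all genes, all higher: ADH1A and the ventricular genes MYL2, IRX4, HEY2 and MYH7. ADH1A and MYL2 were at 0.212 TPM or less in every day 11 library and passed the filter only through day 20. Without plate 2_3, 5 of 78 were called, 4 higher and 1 lower, against 2.35% of all genes, with MYL2 and MYH7 the ventricular genes among them. The 10 atrial genes tested had a median log2 fold change of 0.03 at that step, against 0.07 over all genes, and of -0.28 without plate 2_3. From day 4 to day 20, 45 of 72 were called, 42 higher and 3 lower, against 30.8% of all genes, with 9 of 10 atrial and 6 of 6 ventricular genes higher. Without plate 2_3, 53 of 72 were called, 46 higher and 7 lower, against 47.7% of all genes, with the same counts of atrial and ventricular genes. For day 4 against day 0 only 5 of the 10 atrial and 2 of the 6 ventricular genes had enough counts to be tested. Those with too few counts on day 4 passed the filter only through day 20 and could hardly be called lower, so for them the counts are no test of direction. MYL7, an atrial myosin light chain, went from 3.25 ± 0.956 to 6771 ± 4054 TPM, and MYL3, a ventricular one, from 1.02 ± 0.563 to 2058 ± 1096 TPM.

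The genes most like each member were sought among 11865 protein-coding genes by Pearson's r of log2 CPM over the 15 libraries, which share days and so are not independent. RARB was most like FBLN7 (r = 0.987), PDGFRA (0.986) and CBLN2 (0.985), of which PDGFRA is a mesoderm marker. RARA was most like RBFOX2 (r = 0.985), CYP26A1 like PRODH (0.968), CRABP1 like KRTCAP3 (0.969), DHRS3 like ATP6V0A1 (0.964) and RARG like CAPG (0.959). CYP26B1 was most like HEY2 (r = 0.891) and MYL2 (0.869), both of the ventricular list. Before day 20, CYP26B1 held 4 to 20 counts per library and MYL2 at most 0.189 TPM. For MYL2 the r therefore rests mainly on the day 20 libraries. In plate 2_3 the silent-gene rate would account for 61.3% of the CYP26B1 counts. The best values for CRABP2, ALDH1A3 and ALDH1A2 were 0.944 for H1-10, 0.927 for RIMS1 and 0.902 for GRID1. Between members, RARG and CRABP1 were most alike (r = 0.929) and RARB and DHRS3 most opposed (r = -0.824).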

How the data were processed

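Bulk RNA-seq of H1 cells was analysed, 3 libraries for each of 5 days, grouped by the labels. These name day 9, while the methods of the study name another day in its place. Other experiments of the study were not analysed here. The authors aligned reads with STAR 2.5.2b to hg38 and counted them with featureCounts 1.5.1, per the submitters' processing notes, and removed ribosomal RNA and mitochondrial genes. The authors deposited raw counts per gene and TPM, from gene lengths that no source gives. RIN (a score) and the fraction of reads mapped uniquely come from a sample table, also deposited. No column was left unused for want of a sample.

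Differences between days were tested on the counts in edgeR 4.0.16 (R 4.3.3; filterByExpr, minimum count 10 and minimum total 15, TMM normalization, robust quasi-likelihood test), with only the 6 libraries of the compared days in each fit and Benjamini-Hochberg adjustment over all genes tested at a threshold of 0.05. The test over all days used all 15 libraries. Tests were two-sided. SEs were obtained as the absolute log2 fold change over the root of the F statistic. An exact permutation test of 3 against 3 cannot go below 0.1, so none is used for a call. Depth and the spread between libraries set each SE. Levels are means ± SD of TPM. The script was tested on simulated data. Symbols and coordinates come from GENCODE v44 (GRCh38), which held 46872 of the 48777 identifiers.

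The members and gene lists were chosen with earlier results of these data known. Named were all members, listed genes (some are not reported here) past the threshold in a comparison, the highest in each list, and the 3 most alike genes per member by r, among genes whose mean reached 10 CPM on some day. Alternatives were DESeq2 1.42.0, limma 3.58.1 on log2(TPM + 1) and log2(TPM + 0.1), other normalizations and filters, all libraries in one fit, plate or lane as a block, other thresholds and each library left out. Plotting used matplotlib 3.10.9.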

Additional observations from a re-analysis of the deposited data

How the results depend on the processing

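None of the 16 called differences of single members changed sign in any fit run. For day 9 against day 4 and for day 4 against day 0, the counts of called members kept within 1.5 times under every setting run. For day 11 against day 9, the count of 1 member became 3 with DESeq2, 2 with library size alone, 2 with all 15 libraries in one fit, 2 with the lane as a block and 0 at an adjusted p under 0.01, and lay between 0 and 2 with a library left out. For day 20 against day 11, the count of 1 became 3 with DESeq2, 2 with all 15 libraries in one fit, and 0 with upper-quartile normalization, library size alone, no filter, a mean of at least 1 CPM, both limma fits, the lane as a block or an adjusted p under 0.01, and lay between 0 and 1 with a library left out. For day 20 against day 4, the count of 8 was 4 at an adjusted p under 0.01 and 4 to 8 with a library left out, with the low values when a day 4 library was left out. Of the listed genes, the 8 called at day 11 against day 9 became 21 with DESeq2, 5 and 3 with limma, 0 at an adjusted p under 0.01 and 0 to 10 with a library left out. The 5 called at day 20 against day 11 became 17 with DESeq2, 17 with all 15 libraries, 2 and 3 with limma, 0 at an adjusted p under 0.01 and 0 to 6 with a library left out. The causes were not tested.

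Among single members, ALDH1A2 at day 9 against day 4 and CYP26A1 at day 11 against day 9 (edgeR adjusted p = 0.0632) lost their calls with all 15 libraries in one fit, and CRABP1 there without the filter on low counts (edgeR adjusted p = 0.0676). At day 20 against day 4, with a library left out, ALDH1A2 lost its call in 3 of 6 fits, CYP26B1 in 2, RARA in 2 and DHRS3 in 4.

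Of the 13 pairs of libraries of different days that share a plate number, 4 deviated together with r over 0.1, within a range of -0.21 to 0.35 (0.11 to 0.35 in the 3 pairs of plate 6), so plates were not taken as pairing the samples. With plate as a replicate block, the called members numbered 3 at day 11 against day 9, 0 at day 20 against day 11 and 4 over all days (only the libraries with a plate number), and the listed genes 24 and 0 at those steps.

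Differences that changed sign were not called. For day 4 against day 0, ALDH1A2 went from 0.01 to -0.079 with DESeq2, -0.015 with library size alone, -0.041 with all libraries and -0.0018 with limma. For day 20 against day 11, CYP26A1 became -0.11 without the filter, -0.37 with the replicate block and -0.0046 with the lane block, RARA became 0.012 with upper-quartile normalization and 0.037 and 0.038 with the limma fits, RARG became -0.0053 without the filter and -0.077 with the replicate block, and CRABP1 became 0.089 with the replicate block. With a library left out, day 4 against day 0 spanned -0.41 to 0.57 for ALDH1A2, -0.0093 to 0.33 for ALDH1A3, -0.065 to 0.28 for RARA, -0.33 to 0.051 for RARB, -0.11 to 0.27 for RARG, -0.040 to 0.91 for CRABP2 and -0.11 to 0.31 for DHRS3. Day 11 against day 9 spanned -0.14 to 0.19 for CRABP2 and -0.035 to 0.30 for DHRS3, and day 20 against day 11 spanned -0.56 to 0.40 for CYP26A1, -0.29 to 0.18 for RARA, -0.31 to 0.38 for RARG and -0.87 to 0.044 for CRABP1. Upper-quartile normalization and library size alone moved the median log2 fold change of all genes at day 20 against day 11 from 0.07 to 0.18 and 0.13. ALDH1A2 and CYP26B1 had 6 to 58 and 4 to 20 counts per library before day 20.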
